A study of Homo sapiens with 3 samples.

Results

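The genes of cholesterol and fatty acid synthesis were followed in MDA-MB-468 (MM468) cells, a human triple-negative breast cancer line, and in 2 derivatives that had become resistant to chemotherapy. A list of 32 gene symbols, chosen with earlier results of these data known, was matched to the deposited table. All 32 were found among its 46427 genes. The list holds 6 genes of the mevalonate pathway, 11 of sterol synthesis, 6 regulators and transport genes, and 9 of fatty acid synthesis. The libraries came from parental MM468 cells without drug, from cells selected in adriamycin (doxorubicin) at 10 to 140 nM, and from cells selected in paclitaxel at 2 to 320 nM. All 3 lines carry the wild-type label and were grown in medium with fetal bovine serum, which brings lipoprotein cholesterol to the cells. Each derivative was made of the cells that survived selection. The labels give adriamycin or paclitaxel as its treatment, but neither clonality nor the presence of drug at harvest is stated. Resistance and drug exposure at harvest thus cannot be told apart. RNA was sequenced from 1 library per line, so no difference has a replicate check, and a difference between lines cannot be told apart from a difference between single libraries.

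Cholesterol is built from acetyl-CoA through mevalonate and squalene, and fatty acids are built from the same acetyl-CoA through malonyl-CoA. Both pathways are switched on by the sterol regulatory element-binding proteins (SREBPs), which are held in the endoplasmic reticulum by INSIG proteins when sterols are plentiful and are escorted to the Golgi by SCAP when sterols run low. Once released, the SREBPs bind promoters of synthesis genes, often beside NF-Y at CCAAT letters and Sp1 at GC-rich letters. Rapidly dividing tumour cells commonly use both pathways to build membranes.

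The counts summed to 32704885 in parental cells, 47567927 in adriamycin-resistant cells and 43242628 in paclitaxel-resistant cells. The 6 epithelial markers examined had between 4197 and 95501 counts in the 3 libraries. Of the markers of other cell types, COL1A1 (659 to 1629 counts) and CD68 (65 to 527 counts) were the highest, and LUM, COL1A2, ADIPOQ and LEP were at 0 in all 3 libraries. Levels are given as CPM after TMM normalisation (normalised CPM), in which each count is divided by a library size that is corrected for composition, and as TPM, the authors' length-corrected values, wherever genes are compared with each other. A gene was compared when at least 1 of the 2 libraries had 10 or more counts, and was called higher or lower when it differed by at least 2-fold. The 95% intervals beside fold changes treat the reads of a gene as drawn from both libraries (exact binomial method), so they hold counting error and no variation between cultures. In bulk RNA, fewer cells that express a gene and less of its RNA per cell cannot be told apart.

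As a group, the 32 genes were lowest in paclitaxel-resistant cells. They took 0.581% of all counts in parental cells, 0.432% in adriamycin-resistant cells and 0.301% in paclitaxel-resistant cells. Their summed TPM was 3812, 2795 and 2218 in the same order. Each had at least 345 counts in every library, so all 32 entered every comparison.

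In paclitaxel-resistant cells, 17 of the 32 genes (53.1%) were at least 2-fold lower than in parental cells, beside 13.5% of the 19099 genes compared. In the other direction, 2 genes (6.25%) were at least 2-fold higher, beside 20.5% of all genes. The median log2 fold change was -1.01 for the 32 genes and 0.07 for all genes. Among genes with at least 100 counts in at least 1 of the 2 libraries, a level that every member reached, 12.7% were called lower and 11.6% higher. Because the list was chosen with earlier results of these data known, these shares describe the members and are not a test.

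In adriamycin-resistant cells the group moved less. Of the 32 genes, 5 (15.6%) were at least 2-fold lower than in parental cells, beside 11.2% of the 17950 genes compared, and 2 (6.25%) were at least 2-fold higher, beside 11.0%. The 15.6% lay nearer to the share of all genes called lower than the 53.1% above did in paclitaxel-resistant cells. Among genes with at least 100 counts in either library, a level that every member reached, 7.85% were called lower and 6.28% higher. The median log2 fold change was -0.41 for the members and 0.03 for all genes.

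Set directly against adriamycin-resistant cells, paclitaxel-resistant cells had 9 of the 32 genes (28.1%) at least 2-fold lower, beside 13.3% of 19327 genes, and 0 at least 2-fold higher, beside 20.0%. The median log2 fold change of the members was -0.61, and that of all genes 0.07. The 2 comparisons with parental cells use the same parental library, so they are not independent of each other.

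The number of calls in paclitaxel-resistant cells depended on how the libraries were scaled. With library size only, the median of all genes moved up by 0.22 on the log2 scale, and the higher share of all called genes went from 60.4% to 71.2%. With this scaling 12 members were lower, beside 10.0% of all genes. On the TPM values with a pseudocount of 1, 9 were lower, beside 5.52% of all genes. All 12 and all 9 were among the 17. Relative to the median of all genes, the median of the members was -1.085 with TMM, -1.084 with library size only and -0.95 on the TPM values. Against adriamycin-resistant cells, library size only left 5 members lower, namely SCD, ELOVL6, ACSS2, INSIG1 and INSIG2, beside 9.81% of all genes. It moved the higher share of all called genes from 60.1% to 71.4%.

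**Figure D1:**
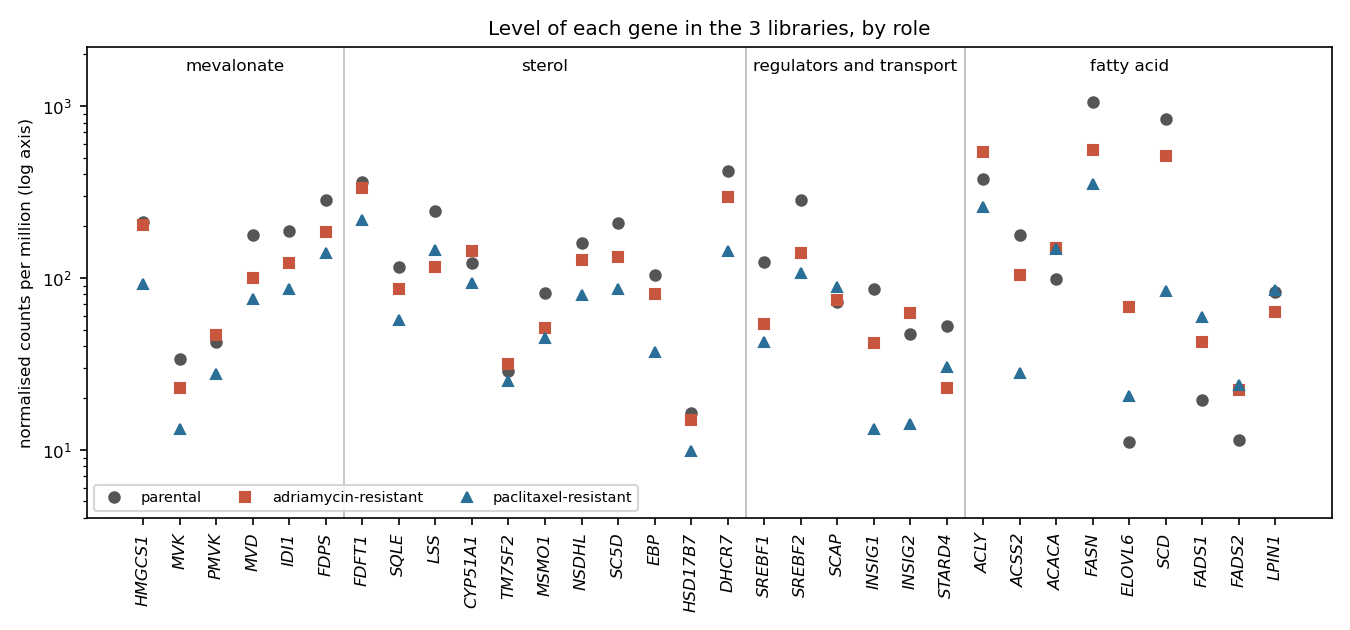
Normalised CPM (log axis) of the 32 genes in the parental (circles), adriamycin-resistant (squares) and paclitaxel-resistant (triangles) libraries, grouped by role, with 1 library per line. The triangles are the lowest for most genes of the mevalonate and sterol groups, and the circles are the lowest for ELOVL6, FADS1, FADS2, ACACA and SCAP.

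**Figure D2:**
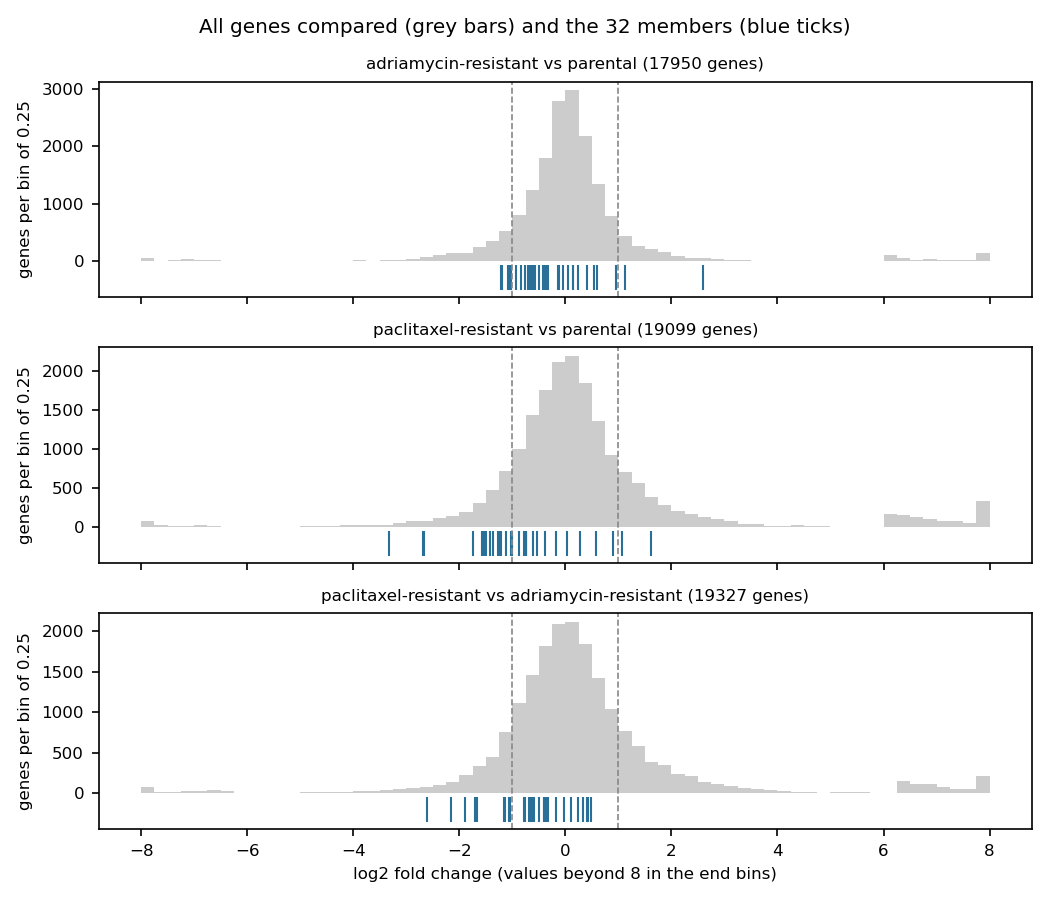
Number of genes in each bin of log2 fold change for all genes compared (grey), with the 32 members as blue ticks below, for the 3 comparisons. Dashed lines mark 2-fold, and the bins beyond 6 on either side hold mostly genes with 0 counts in 1 library. The ticks lie furthest to the left in the comparison of paclitaxel-resistant with parental cells, where their median is -1.01.

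The mevalonate genes, which make the isoprenoid units for sterols, were all lower in paclitaxel-resistant than in parental cells. With TMM, 5 of the 6 (83.3%) passed 2-fold, beside 13.5% of all genes. HMGCS1, IDI1 and FDPS did not pass it with library size only. On TPM with a pseudocount of 1, none of the 6 passed it. HMGCS1, which makes HMG-CoA at the head of the pathway, was at 211 normalised CPM in parental cells, 204 in adriamycin-resistant cells and 91.5 in paclitaxel-resistant cells. It thus stood close to the parental level in one derivative (1.04-fold lower, interval 1.00 to 1.07) and was 2.31-fold lower in the other (interval 2.22 to 2.40). MVK, the kinase that phosphorylates mevalonate, was at 33.9, 22.7 and 13.2 normalised CPM, which was 2.56-fold lower than parental in paclitaxel-resistant cells (interval 2.32 to 2.84). The level in adriamycin-resistant cells lay between the other two.

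MVD, the decarboxylase that yields isopentenyl pyrophosphate, was at 177.9 normalised CPM in parental cells, 99.6 in adriamycin-resistant cells and 75.3 in paclitaxel-resistant cells. It was 1.79-fold lower than parental in the first derivative (interval 1.72 to 1.86) and 2.36-fold lower in the second (interval 2.26 to 2.46). IDI1, which isomerises that unit, followed the same order at 187.1, 122.4 and 86.5 normalised CPM, 1.53-fold and 2.16-fold lower (interval of the latter 2.08 to 2.25).

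FDPS, which joins isoprenoid units to farnesyl pyrophosphate, was at 285 normalised CPM in parental cells, 184 in adriamycin-resistant cells and 139.9 in paclitaxel-resistant cells. Its fold change in paclitaxel-resistant cells, 2.04-fold lower, had an interval of 1.97 to 2.10 that includes 2-fold. FDPS had the highest TPM of the 32 genes in parental cells (462) and in paclitaxel-resistant cells (285), and the next highest in adriamycin-resistant cells (289). PMVK, the next kinase after MVK, was the exception in the group. At 42.2, 46.7 and 27.7 normalised CPM, it was 1.11-fold higher than parental in adriamycin-resistant cells (interval 1.03 to 1.19) and 1.53-fold lower in paclitaxel-resistant cells (interval 1.41 to 1.65). In adriamycin-resistant cells none of the 6 mevalonate genes passed 2-fold in either direction.

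Of the 11 sterol synthesis genes, 5 (45.5%) were at least 2-fold lower in paclitaxel-resistant than in parental cells, beside 13.5% of all genes. The other 6 were lower by 1.14-fold to 1.82-fold. SQLE and NSDHL were not called with library size only, and SC5D, SQLE and NSDHL were not called on TPM. The 2 largest differences were in DHCR7 and EBP. DHCR7, the reductase of the last step to cholesterol, was at 419 normalised CPM in parental cells, 296 in adriamycin-resistant cells and 143.9 in paclitaxel-resistant cells, which was 2.91-fold lower than parental (interval 2.83 to 2.997). EBP, a sterol isomerase, was at 104.3, 80.6 and 36.8 normalised CPM and was 2.83-fold lower (interval 2.67 to 3.002). With TMM, both genes were also at least 2-fold lower than in adriamycin-resistant cells, by 2.06-fold for DHCR7 and 2.19-fold for EBP. SC5D, a sterol desaturase, was at 207, 132.7 and 86.0 normalised CPM and was 2.41-fold lower than parental.

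SQLE, squalene epoxidase, an early oxygen-dependent step that limits the pathway, was at 115.0 normalised CPM in parental cells, 85.8 in adriamycin-resistant cells and 57.2 in paclitaxel-resistant cells. It lay at the threshold in paclitaxel-resistant cells, 2.01-fold lower with an interval of 1.91 to 2.12. NSDHL, a sterol dehydrogenase, at 159.0, 126.6 and 78.9 normalised CPM, lay there too, 2.02-fold lower with an interval of 1.93 to 2.10. FDFT1, squalene synthase, was at 362, 331 and 217 normalised CPM, and its 1.67-fold lower level did not pass 2-fold.

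LSS, lanosterol synthase, ran in another order. It was at 245 normalised CPM in parental cells, 115.4 in adriamycin-resistant cells and 145.8 in paclitaxel-resistant cells. This made it the one sterol gene that was at least 2-fold lower in adriamycin-resistant cells (2.12-fold, interval 2.05 to 2.196). In paclitaxel-resistant cells it was 1.68-fold lower. CYP51A1, the lanosterol demethylase, was at 121.6, 143.5 and 93.6 normalised CPM, which was 1.18-fold higher than parental in adriamycin-resistant cells and 1.30-fold lower in paclitaxel-resistant cells. TM7SF2, a sterol reductase, stayed within 1.14-fold of the parental level in both, and its direction in paclitaxel-resistant cells flipped when library size or TPM was used. MSMO1, the methylsterol oxidase, was at 81.7, 50.8 and 44.8 normalised CPM, 1.61-fold and 1.82-fold lower than parental. HSD17B7, a ketosteroid reductase, was at 16.4, 14.9 and 9.79 normalised CPM, and its interval in adriamycin-resistant cells (0.98-fold to 1.24-fold lower) includes no change.

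**Figure D3:**
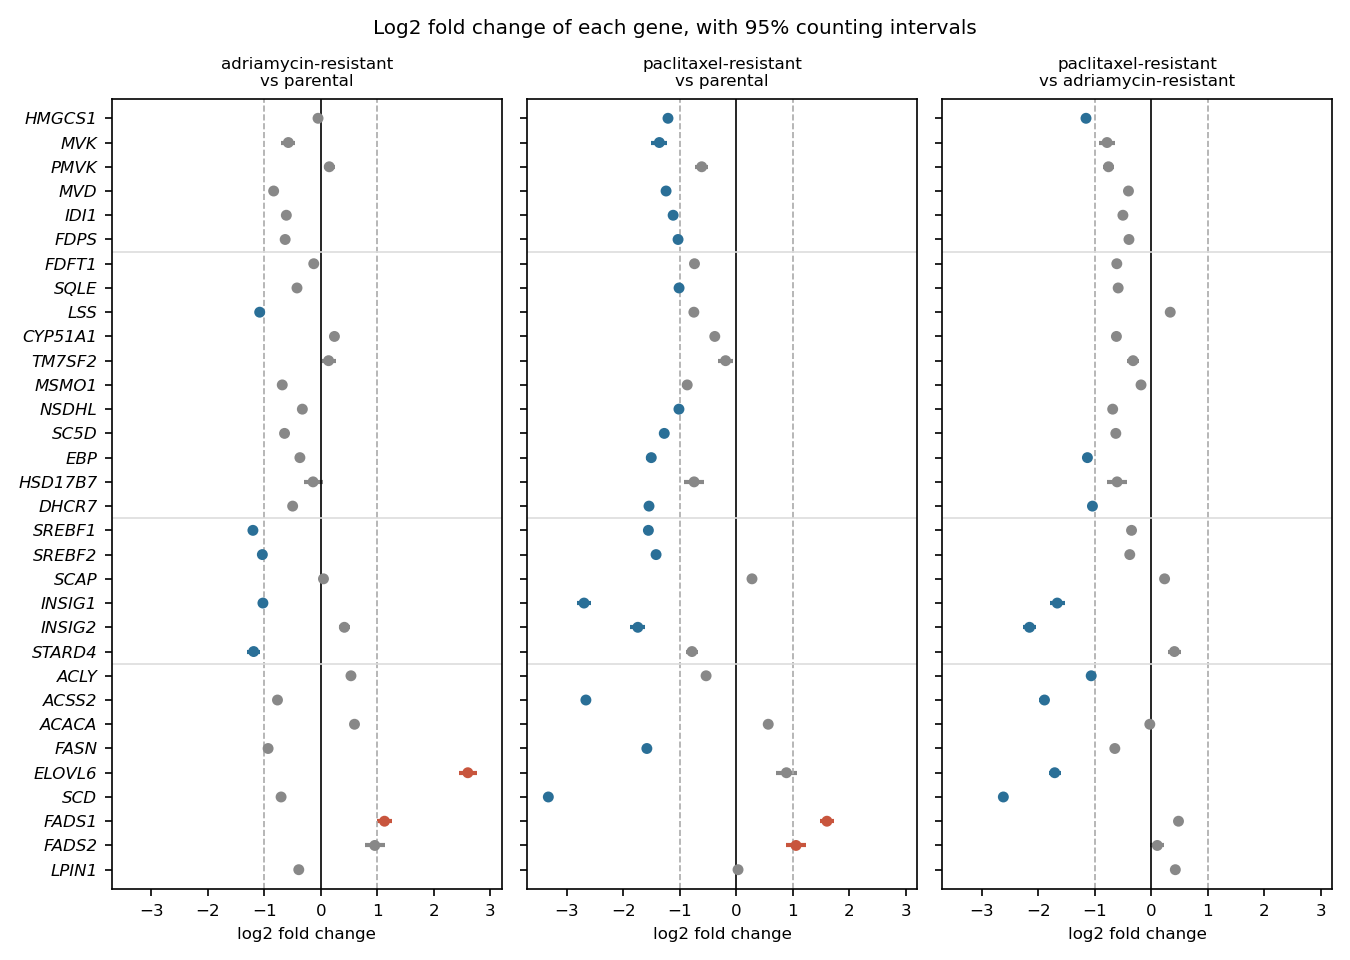
Log2 fold change (x axis) of each of the 32 genes, in the order of their roles from mevalonate genes at the top to fatty acid genes at the bottom, for the 3 comparisons. Bars are 95% counting intervals, dashed lines mark 2-fold, blue points are at least 2-fold lower and red points at least 2-fold higher. Blue points number 5, 17 and 9 from left to right, and the leftmost point is SCD in paclitaxel-resistant against parental cells.

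The 6 regulators and transport genes held 4 of the 5 members called lower in adriamycin-resistant cells. That was 66.7% of the 6, beside 11.2% of all genes. SREBF1, which encodes the SREBP that acts mostly on fatty acid genes, was at 124.4 normalised CPM in parental cells, 54.0 in adriamycin-resistant cells and 42.4 in paclitaxel-resistant cells. The gene lies at chr17:17811334-17836986. It was 2.30-fold lower than parental in the first derivative (interval 2.19 to 2.42) and 2.93-fold lower in the second (interval 2.78 to 3.10). SREBF2 (chr22:41833105-41907305), which encodes the SREBP that acts mostly on cholesterol genes, was at 284, 138.5 and 106.5 normalised CPM. It was 2.05-fold lower (interval 1.99 to 2.12) and 2.67-fold lower (interval 2.58 to 2.76). The ratio of the TPM of SREBF1 to that of SREBF2 was 0.491, 0.462 and 0.473 in the 3 libraries, so the 2 transcripts kept nearly the same proportion.

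SCAP, the escort of the SREBPs, did not share their lower level. It was at 72.3 normalised CPM in parental cells, 74.6 in adriamycin-resistant cells and 87.9 in paclitaxel-resistant cells, which was 1.03-fold higher (interval 0.98 to 1.09) and 1.22-fold higher (interval 1.16 to 1.28) than parental. The TPM ratio of SREBF2 to SCAP, a value within each library that needs no scaling, was 3.16 in parental cells, 1.49 in adriamycin-resistant cells and 0.974 in paclitaxel-resistant cells.

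The INSIG genes, whose products hold SCAP and the SREBPs back, differed between the derivatives. INSIG1 (chr7:155297878-155310235), itself a classical SREBP target, was at 85.6 normalised CPM in parental cells, 42.0 in adriamycin-resistant cells and 13.3 in paclitaxel-resistant cells. It was 2.04-fold lower than parental in adriamycin-resistant cells (interval 1.92 to 2.16) and 6.46-fold lower in paclitaxel-resistant cells (interval 5.92 to 7.05). INSIG2 (chr2:118088471-118110997) was at 47.0, 62.6 and 14.1 normalised CPM, on opposite sides of the parental level in the 2 derivatives. It was 1.33-fold higher in adriamycin-resistant cells (interval 1.25 to 1.42) and 3.34-fold lower in paclitaxel-resistant cells (interval 3.05 to 3.66), and the 2 derivatives differed by 4.45-fold (interval 4.09 to 4.85). INSIG1 exceeded INSIG2 in TPM by 2.10-fold in parental cells and by 1.10-fold in paclitaxel-resistant cells, and was 0.758 times as high in adriamycin-resistant cells.

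STARD4, which carries cholesterol between membranes, was lowest in adriamycin-resistant cells. Its levels were 52.3 normalised CPM in parental cells, 22.9 in adriamycin-resistant cells and 30.5 in paclitaxel-resistant cells, or 2.28-fold lower (interval 2.11 to 2.47) and 1.72-fold lower than parental. As for LSS, its level in adriamycin-resistant cells lay under that in paclitaxel-resistant cells, by 1.33-fold for STARD4 and 1.26-fold for LSS.

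The promoters of 5 genes are shown because these genes stand for the main patterns. SREBF2, INSIG1 and SCD were at least 2-fold lower in paclitaxel-resistant cells, ELOVL6 was higher in adriamycin-resistant cells, and FADS1 was at least 2-fold higher in both. Each sequence is the 250 bases before the start that RefSeq's promoter entry uses on GRCh38.p14, 5' to 3' on the gene's strand. For ELOVL6 that start lies inside the outermost span of the gene, so its window is within the gene, and the other 4 windows end at the outermost start. Capitals mark the letters of 4 words that were searched on both strands. The sterol word TCACNCCAC is part of a sterol regulatory element. The word CCAAT is the core of the sites that NF-Y binds. The GC box was searched as GGGCGG, which Sp1 proteins bind. The E-box was searched as CACGTG, a site of many basic helix-loop-helix factors. The positions are chr22:41832855-41833104 (plus strand) for SREBF2, chr7:155297628-155297877 (plus) for INSIG1, chr10:100346983-100347232 (plus) for SCD, chr4:110198616-110198865 (minus) for ELOVL6 and chr11:61817004-61817253 (minus) for FADS1.
SREBF2: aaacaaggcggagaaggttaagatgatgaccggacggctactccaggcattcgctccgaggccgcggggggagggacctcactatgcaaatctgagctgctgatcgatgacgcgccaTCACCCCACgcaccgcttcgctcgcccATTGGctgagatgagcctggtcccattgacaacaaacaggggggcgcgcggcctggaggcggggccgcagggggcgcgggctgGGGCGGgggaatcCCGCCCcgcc
INSIG1: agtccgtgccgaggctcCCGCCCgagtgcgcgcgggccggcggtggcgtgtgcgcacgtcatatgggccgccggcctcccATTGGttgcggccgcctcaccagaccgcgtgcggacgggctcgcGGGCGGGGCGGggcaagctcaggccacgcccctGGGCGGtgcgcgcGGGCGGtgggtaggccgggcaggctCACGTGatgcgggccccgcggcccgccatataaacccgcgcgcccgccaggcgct
SCD: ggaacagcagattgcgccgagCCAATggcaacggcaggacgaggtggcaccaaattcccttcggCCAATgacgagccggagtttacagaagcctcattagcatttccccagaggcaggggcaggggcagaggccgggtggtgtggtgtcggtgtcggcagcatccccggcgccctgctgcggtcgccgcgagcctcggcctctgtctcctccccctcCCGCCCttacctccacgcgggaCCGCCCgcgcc
ELOVL6: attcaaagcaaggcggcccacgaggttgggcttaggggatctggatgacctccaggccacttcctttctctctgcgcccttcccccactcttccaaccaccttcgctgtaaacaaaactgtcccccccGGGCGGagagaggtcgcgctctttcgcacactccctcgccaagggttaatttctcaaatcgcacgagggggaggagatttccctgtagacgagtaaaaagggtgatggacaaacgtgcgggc
FADS1: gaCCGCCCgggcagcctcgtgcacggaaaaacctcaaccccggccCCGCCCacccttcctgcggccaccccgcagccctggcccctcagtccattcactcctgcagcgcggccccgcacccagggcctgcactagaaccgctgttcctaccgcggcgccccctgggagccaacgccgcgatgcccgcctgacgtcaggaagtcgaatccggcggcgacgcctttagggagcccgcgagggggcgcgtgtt
In SREBF2 the sterol word begins 133 bases before the start, and a CCAAT on the opposite strand begins at 106. INSIG1 holds 1 CCAAT, 5 GC boxes, of which the pair at 126 and 121 overlaps by a base, and 1 E-box at 55. SCD holds CCAAT at 229 and 186 and 2 GC boxes. ELOVL6 holds 1 GC box and FADS1 holds 2, with none of the other words.

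RefSeq gave 42 starts for 29 of the 32 genes, and no promoter was used here for FDFT1, SQLE or FASN. CCAAT was in the window of 24 of these 42 starts (57.1%), beside 32% of 35116 starts of all genes. The GC box was in 37 of 42 (88.1%), beside 42.6%. These are not like sets. The starts of all genes were not filtered by gene type or expression, whereas all members are protein-coding and had at least 345 counts. Several starts of a gene were also counted separately, and the differences were not tested. The sterol word was in 1 of 42 starts (2.38%), that of SREBF2, beside 0.883% of all starts. The E-box was in 4 of 42 (9.52%), in INSIG1, SC5D and SCAP, beside 6.34%. A match describes letters in a window and not binding.

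The fatty acid genes were called in both directions against parental cells, whereas no mevalonate or sterol gene was called higher in either derivative. In paclitaxel-resistant cells 3 of the 9 (33.3%) were at least 2-fold lower than parental (SCD, ACSS2 and FASN), beside 13.5% of all genes. At least 2-fold higher were 2 (22.2%, FADS1 and FADS2), near the 20.5% of all genes. In adriamycin-resistant cells 2 (22.2%) were at least 2-fold higher (ELOVL6 and FADS1), beside 11.0% of all genes. There 0 were at least 2-fold lower, beside 11.2%. The median log2 fold change of the 9 was 0.53 in adriamycin-resistant and 0.03 in paclitaxel-resistant cells.

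SCD, stearoyl-CoA desaturase, which puts the first double bond into saturated fatty acids, had the largest difference of all 32 genes. The gene lies at chr10:100347233-100364826 in the RefSeq annotation of GRCh38.p14, from which all gene positions here are taken. It was at 836 normalised CPM in parental cells, 513 in adriamycin-resistant cells and 83.6 in paclitaxel-resistant cells, from 25927, 23268 and 3996 counts. It was 1.63-fold lower than parental in adriamycin-resistant cells (interval 1.60 to 1.66) and 10.0-fold lower in paclitaxel-resistant cells (interval 9.68 to 10.4). Among the 32 genes it ranked 3 by TPM in parental cells, 5 in adriamycin-resistant cells and 18 in paclitaxel-resistant cells.

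The desaturases FADS1 and FADS2, which add double bonds in the making of polyunsaturated fatty acids, were higher in both derivatives than in parental cells. FADS1 was at 19.4 normalised CPM in parental cells, 42.3 in adriamycin-resistant cells and 59.1 in paclitaxel-resistant cells. This was 2.18-fold higher (interval 1.99 to 2.39) and 3.05-fold higher (interval 2.79 to 3.33) than parental. FADS2 was at 11.4, 22.1 and 23.8 normalised CPM, 1.94-fold higher (interval 1.71 to 2.19) and 2.09-fold higher (interval 1.85 to 2.36). Both intervals of FADS2 include 2-fold. The genes are neighbours on chromosome 11 (FADS1 at 61799627 to 61817003, FADS2 at 61816203 to 61867354) and share 801 bases, and whether the counting used strand is not stated.

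Within a library, the TPM of SCD was 43.1 times that of FADS2 in parental cells, 13.5 times in adriamycin-resistant cells and 2.03 times in paclitaxel-resistant cells. Against FADS1 the ratio was 35.9, 10.1 and 1.17. These ratios need no scaling between libraries, and they place the transcripts of SCD and FADS1 at nearly equal levels in paclitaxel-resistant cells (41.8 and 35.6 TPM).

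ELOVL6 (chr4:110045846-110199202), which lengthens the saturated chains that fatty acid synthase releases, was at 11.1 normalised CPM in parental cells, 67.5 in adriamycin-resistant cells and 20.6 in paclitaxel-resistant cells. It was the lowest of the 32 genes in parental cells by TPM (3.59). It was 6.06-fold higher than parental in adriamycin-resistant cells (interval 5.42 to 6.80) and 1.86-fold higher in paclitaxel-resistant cells (interval 1.64 to 2.10), and the derivatives differed by 3.27-fold (interval 3.04 to 3.52). With library size only or TPM, its difference between paclitaxel-resistant and parental cells passed 2-fold.

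FASN (chr17:82078338-82098236), fatty acid synthase, had the most counts of the 32 genes in all 3 libraries. It was at 1052 normalised CPM in parental cells, 550 in adriamycin-resistant cells and 352 in paclitaxel-resistant cells. This was 1.91-fold lower (interval 1.88 to 1.94) and 2.99-fold lower (interval 2.93 to 3.04) than parental. ACACA, acetyl-CoA carboxylase, the step before FASN, was instead at 98.9, 149.2 and 146.7 normalised CPM, which was 1.51-fold and 1.48-fold higher than parental. The TPM ratio of ACACA to FASN was 0.0816 in parental cells, 0.234 in adriamycin-resistant cells and 0.358 in paclitaxel-resistant cells.

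The enzymes that supply acetyl-CoA differed as well. ACSS2 (chr20:34874989-34927959) makes it from acetate and was at 176.5 normalised CPM in parental cells, 103.6 in adriamycin-resistant cells and 28.0 in paclitaxel-resistant cells. It was 1.70-fold lower than parental (interval 1.64 to 1.77) in the first derivative and 6.31-fold lower (interval 5.95 to 6.71) in the second. ACLY makes acetyl-CoA from citrate and was at 373, 540 and 258 normalised CPM. It was 1.45-fold higher than parental in adriamycin-resistant cells (interval 1.41 to 1.48) and 1.45-fold lower in paclitaxel-resistant cells (interval 1.41 to 1.48), so that the derivatives differed by 2.09-fold. The TPM ratio of ACSS2 to ACLY was 0.701 in parental cells, 0.285 in adriamycin-resistant cells and 0.160 in paclitaxel-resistant cells.

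LPIN1, a phosphatase of glycerolipid synthesis, was at 83.0, 63.2 and 85.0 normalised CPM. It was 1.31-fold lower than parental in adriamycin-resistant cells, and its interval in paclitaxel-resistant cells (0.97 to 1.08) includes no change.

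**Figure D4:**
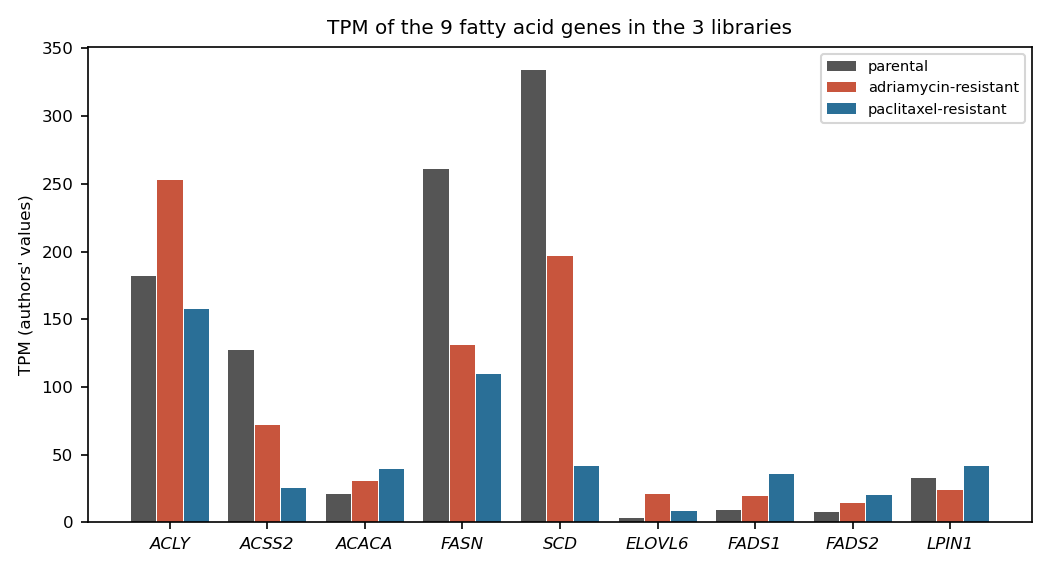
TPM (the authors' values) of the 9 fatty acid genes in the parental, adriamycin-resistant and paclitaxel-resistant libraries, 1 library each. The SCD bar goes from 334 in parental cells to 41.8 in paclitaxel-resistant cells, while FADS1 goes from 9.31 to 35.6.

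With TMM, the genes called in paclitaxel-resistant against adriamycin-resistant cells came from all 4 roles. They were HMGCS1 (2.23-fold lower), EBP, DHCR7, INSIG1 (3.17-fold), INSIG2, ACLY, ACSS2 (3.70-fold), ELOVL6 and SCD (6.14-fold, interval 5.93 to 6.35). Of these, HMGCS1, EBP, DHCR7 and ACLY were not called with library size only or on TPM. No mevalonate or sterol gene was then left among the calls. The members that were higher in paclitaxel-resistant cells were so by at most 1.40-fold, the value of FADS1 (interval 1.32 to 1.48). SREBF1 and SREBF2 were 1.27-fold and 1.30-fold lower, although their TPM were nearly equal in the 2 derivatives (24.8 and 25.3 for SREBF1, 53.7 and 53.6 for SREBF2). The interval of DHCR7 (1.997 to 2.12) includes 2-fold.

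Pseudogenes and near copies took few reads. The 20 such genes searched, among them copies of FDPS, CYP51A1, IDI1, HSD17B7 and SCD, had at most 17 counts in any library. The antisense RNAs of SREBF2 (12, 10 and 62 counts) and STARD4 (49, 56 and 149 counts) had fewer counts than the genes they overlap, in all 3 libraries.

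Neighbouring parts of lipid metabolism were examined through further lists, with the share of each list in brackets. Of all genes, 11.0% were called higher and 11.2% lower than parental in adriamycin-resistant cells. In paclitaxel-resistant cells these shares were 20.5% and 13.5%. Of 8 other SREBP target genes, 0 were at least 2-fold higher and 1 (12.5%) was at least 2-fold lower than parental in each derivative. The median log2 fold change was -0.24 in adriamycin-resistant and -0.65 in paclitaxel-resistant cells. Of 9 genes of the isoprenoid branch, 0 were called in adriamycin-resistant cells, and 1 (11.1%) was higher in paclitaxel-resistant cells (FNTA, a farnesyltransferase subunit, 2.04-fold).

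Of 20 further genes of fatty acid synthesis, desaturation and elongation that were compared, 4 (20.0%) were called higher and 1 (5.0%) lower than parental in adriamycin-resistant cells. The median log2 fold change was 0.15. In paclitaxel-resistant cells 1 (5.0%) was higher and 8 (40.0%) were lower, with a median of -0.71. ELOVL3, an elongase of long saturated chains, had 10 counts in parental cells, 296 in adriamycin-resistant cells and 0 in paclitaxel-resistant cells. It was 20.0-fold higher than parental in adriamycin-resistant cells (interval 10.8 to 42.6). With its 0 counts set to a floor of 3 counts on the TMM scale, it was 104.0-fold lower in paclitaxel-resistant than in adriamycin-resistant cells. The counting interval from the 0 counts themselves begins at 84.0-fold, so 104.0-fold is not a lower bound. ELOVL2, an elongase of polyunsaturated chains, was at 7.06, 22.2 and 1.97 normalised CPM, 3.14-fold higher and 3.59-fold lower than parental. ELOVL5, which also lengthens polyunsaturated chains, was at 214, 125.6 and 71.7 normalised CPM and was 2.99-fold lower in paclitaxel-resistant cells. HACD1, a dehydratase of the cycle, was 3.71-fold higher there, from 78 counts in parental and 447 in paclitaxel-resistant cells. HACD2 (7714 counts in paclitaxel-resistant cells), HACD3 (4798) and HACD4 (34) were 1.23-fold, 1.16-fold and 2.985-fold lower. TECR, the reductase of the cycle, was 2.68-fold lower.

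Of 16 sterol transport, storage and efflux genes compared, 2 (12.5%) were called higher and 3 (18.8%) lower than parental in adriamycin-resistant cells. In paclitaxel-resistant cells 0 were higher and 2 (12.5%) lower, the latter near the 13.5% of all genes. CYP27A1, which oxidises the cholesterol side chain, was at 66.3 normalised CPM in parental cells, 20.2 in adriamycin-resistant cells and 4.46 in paclitaxel-resistant cells, 3.28-fold and 14.9-fold lower than parental. LRP8, a lipoprotein receptor, was at 148.8, 45.9 and 52.3 normalised CPM, 3.24-fold and 2.84-fold lower. SOAT1, which esterifies cholesterol for storage, was 2.51-fold lower in adriamycin-resistant cells and 1.53-fold lower in paclitaxel-resistant cells.

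Of 10 acyl-CoA and glycerolipid synthesis genes, 1 (10.0%) was called higher and 1 (10.0%) lower in adriamycin-resistant cells. They were the acyl-CoA synthetases ACSL5 (5.05-fold higher) and ACSL4 (2.45-fold lower). In paclitaxel-resistant cells 0 were higher and 3 (30.0%) lower. Of the fatty acid uptake and oxidation genes, 1 of 13 (7.69%) was higher and 2 (15.4%) were lower in adriamycin-resistant cells. In paclitaxel-resistant cells 1 of 14 (7.14%) was higher and 2 (14.3%) were lower. The 2 lower genes in paclitaxel-resistant cells were the fatty acid transporter SLC27A1 (5.04-fold lower) and CPT1A, the gate of mitochondrial oxidation (2.29-fold lower).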

How the data were processed

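Sources differ on RNA extraction, with the MagMAX mirVana kit in the labels and the RNeasy Mini Kit in the paper's methods. Libraries were made with the TruSeq Stranded mRNA kit, per the labels, with sequencing and analysis by Macrogen Japan Corp. The submitters' processing notes name Trimmomatic 0.39, HISAT2 2.2.1, StringTie 2.2.1 and GRCh38, without roles. The counting program, the annotation and the use of strand are not given in the sources used here. The authors deposited 1 table of 46427 genes with unnormalised read counts and, computed by them, TPM and FPKM values. The FPKM values were not used.

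Libraries were scaled together with TMM (edgeR 4.0.16, R 4.3.3), and log2 fold changes were taken with a prior count of 0.125 in Python 3.11.15. No test was possible with 1 library per line, so a call means a difference of at least 2-fold in genes with 10 or more counts in at least 1 of the 2 libraries. Exact binomial 95% intervals used SciPy 1.17.1. The floor of 3 counts equals 0.0968, 0.0661 and 0.0627 normalised CPM in the parental, adriamycin-resistant and paclitaxel-resistant libraries. The steps were tested on simulated data. All 32 members were matched by symbol to the RefSeq annotation of GRCh38.p14, which gave gene positions, overlaps and promoters.

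The members and lists were chosen with earlier results of these data known. Members called in any comparison, and HMGCS1, SQLE, INSIG1, SREBF1, SREBF2, ACLY, ACACA, FASN and SCD, were to be described in full. From each further list, genes were named among the 3 highest and 3 lowest called fold changes with 100 or more counts. As alternatives, scaling was done with DESeq2 1.42.0, by library size alone or with TMM on the 2 libraries compared. Others were a larger prior count (2), a count minimum of 0 or 100, thresholds of 1.5-fold and 4-fold, and TPM with a pseudocount of 1 or 0.1. Some genes of the further lists are not reported here.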

Additional observations from a re-analysis of the deposited data

Results flagged for a closer look

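For 4 of the 32 genes the derivatives lay on opposite sides of the parental level, with counting intervals that left out no change, under TMM, DESeq2 size factors and library size alike. LPIN1 also lay on opposite sides, but its interval in paclitaxel-resistant cells included no change under TMM. With 1 library per line the difference between the derivatives' effects was not tested. INSIG2, which holds back the SREBPs, had a log2 fold change against parental cells of 0.41 in adriamycin-resistant and -1.74 in paclitaxel-resistant cells. For ACLY, the source of acetyl-CoA from citrate, the values were 0.53 and -0.53. For PMVK, a mevalonate pathway kinase, they were 0.15 and -0.61, and for CYP51A1, the lanosterol demethylase, 0.24 and -0.38.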

How the results depend on the processing

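No result changed direction while called, and of 768 values of single members under the alternatives 552 lay within the counting interval, 203 lay outside it with the same sign and 13 outside it with the opposite sign. With 2 more inside the interval, 15 had the opposite sign, in SCAP, TM7SF2, MSMO1, ACACA and SREBF1. No paired analysis was possible because each line has a single library. Leaving out a replicate was likewise not possible. At 1.5-fold, 4 members were higher and 13 lower in adriamycin-resistant than in parental cells, beside 19.8% and 19.6% of all genes. In paclitaxel-resistant against adriamycin-resistant cells 17 were lower, beside 23.7% of all genes. At 4-fold, the members called were 1 higher and 0 lower (adriamycin-resistant), 0 higher and 3 lower (paclitaxel-resistant), and 2 lower between the derivatives. The shares of all genes in the same order were 4.89% and 3.96%, 10.5% and 4.57%, and 4.22%. Under scaling by library size, the members' median log2 fold change was -0.79 in paclitaxel-resistant against parental cells and -0.39 between the derivatives. Between the derivatives 5 were lower with this scaling, beside 9.81% of all genes. On TPM with a pseudocount of 1, 1 member was higher in adriamycin-resistant cells, beside 3.94% of all genes. With the same values 9 were lower in paclitaxel-resistant cells (median -0.68), beside 5.52%, and 5 between the derivatives (median -0.22), beside 4.51%. With a pseudocount of 0.1, 10 were lower in paclitaxel-resistant cells (median -0.69), beside 8.27% of all genes. Between the derivatives 1 was higher (STARD4) and 5 lower (median -0.22), beside 26.9% and 7.48%. These scalings move all genes together, with a median of all genes of 0.27 and 0.39 on TPM with pseudocounts of 1 and 0.1 in paclitaxel-resistant against parental cells, and 0.30 and 0.43 between the derivatives.

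Over all genes, the numbers called higher and lower in adriamycin-resistant cells went from 1981 and 2019 to 4252 and 3822 with no count minimum, 825 and 1030 with a minimum of 100, 3561 and 3527 at 1.5-fold, 878 and 711 at 4-fold, and 707 and 1085 on TPM with a pseudocount of 1. In paclitaxel-resistant cells they went from 3924 and 2569 to 6952 and 4033, 1584 and 1728, 5698 and 4471, 1998 and 872, and 2607 and 1055, and to 4867 and 1580 with a pseudocount of 0.1. Between the derivatives they went from 3870 and 2564 to 6651 and 4114, 1632 and 1720, 5813 and 4584, 1784 and 815, 2850 and 871, and 5192 and 1446.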
